A study of Mus with 4 samples.

Results

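The genes described are the 3 that encode fibrinogen, Fga, Fgb and Fgg, picked by Ensembl identifier as 3 of the 54532 genes in a table of RNA sequencing read counts. Fga (ENSMUSG00000028001) encodes the Aα chain, Fgb (ENSMUSG00000033831) the Bβ chain and Fgg (ENSMUSG00000033860) the γ chain. The samples came from liver sinusoidal endothelial cells (LSECs), which line the capillaries of the liver, and all mice had received carbon tetrachloride (CCl4), a hepatotoxin used to provoke liver fibrosis. The mice named P1KO carried a knockout of Pofut1, placed by the series title in the endothelium (2 libraries, KO1 and KO3), and the controls, CTL, had no further genotype in the labels (2 libraries, CTL1 and CTL2). The labels give neither the strain, age and sex of the mice, nor the driver of the deletion, nor the CCl4 schedule, nor whether 1 library is 1 mouse. The p-values below can therefore speak only of variation from library to library, part or all of which may be technical.

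Fibrinogen is the soluble precursor of the fibrin clot. Each molecule is a dimer in which every arm holds one Aα, one Bβ and one γ chain joined by disulphide bonds, and thrombin removes short peptides from the Aα and Bβ chains so that the remainder polymerises. Hepatocytes are the main source of plasma fibrinogen, and all the chain genes are raised together in the acute phase response, in which interleukin-6 acts through STAT3. POFUT1 is a protein O-fucosyltransferase whose substrates are EGF-like repeats, those of the Notch receptors included. The series title names repression of fibrinogen synthesis by endothelial POFUT1, and the comparison that bears on it is the level of each chain in P1KO against CTL.

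In the RefSeq annotation of the mouse assembly GRCm38.p6, the chain genes lie close together on chromosome 3. Fgg lies at chr3:83007724-83015056, Fga at chr3:83026153-83033627 and Fgb at chr3:83042246-83049863. Gaps of 11096 bases between Fgg and Fga and of 8618 bases between Fga and Fgb separate them, and the whole group spans 42140 bases. A long noncoding RNA gene, Gm40075, lies in the gap between Fga and Fgb. The span of Fgg overlaps that of another such gene, Gm30097, by 692 bases, and the strand setting of the counting is not given in the sources used here. Whether reads from that overlap were told apart by gene is therefore not known, and the value of Fgg carries this reservation. The Fga and Fgb spans overlap no other gene of that annotation. RefSeq lists 2 curated mRNAs each for Fga and Fgg and 1 for Fgb, and the deposited counts, being per gene, do not separate the isoforms.

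The 4 libraries were almost equally deep, from 17464769 to 17918834 counted reads, and 1 read corresponded to 0.0560 to 0.0570 CPM (the depth-scaled read count, computed here with TMM scaling). Symbols were matched only for the chains and for 2 hepatocyte genes, Alb (ENSMUSG00000029368) and Ttr (ENSMUSG00000061808), because the identifiers of the table could not be paired with names. Pofut1 itself, markers of LSECs and markers of other cells are not analysed here, so neither the deletion nor the cell type was checked. By its extraction protocol the RNA came from heart ventricles, which contradicts the tissue label, liver. Alb, which encodes the plasma protein albumin, had between 11783 and 12060 reads in each library.

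All 3 fibrinogen chains rose in P1KO, by 2.78-fold for Fga, 2.31-fold for Fgb and 2.14-fold for Fgg, while Alb differed between genotypes by less than the spread of the libraries and Ttr fell in P1KO. The chains numbered 3 of 3 called higher (quasi-likelihood test of edgeR, with p adjusted over all tested genes by Benjamini and Hochberg and a threshold of 0.05), against 9.68% of the 15510 tested genes called higher in P1KO and 19.5% called in either direction. They also numbered 3 of 3 called at least 2-fold higher, against 1.13% of tested genes. That second count depended on KO3, the higher P1KO library: without it the folds were 2.33 for Fga, 1.97 for Fgb and 1.77 for Fgg, so that only Fga stayed above 2-fold. The chains were chosen with earlier results of these data known, so both counts are descriptions and not tests of enrichment. Each of the 3 passed the filter on low counts. These calls did not hold when either CTL library was left out, nor did most calls of other genes, as set out with the other fits below.

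Fga, which carries the Aα chain, had 2521 reads in KO1 and 3547 in KO3, against 1080 in CTL1 and 1102 in CTL2. On the CPM scale these levels were 143 in KO1 and 199 in KO3, against 61.5 in CTL1 and 61.7 in CTL2. Both P1KO libraries lay above both CTL libraries, which was true of 30.5% of all tested genes, and the CTL libraries were nearly equal. The mean level was 171 ± 39.6 CPM in P1KO and 61.6 ± 0.134 CPM in CTL (SD, n = 2 each). The log2 fold change was 1.48 ± 0.14 (SE), with a 95% interval of the fold of 2.21 to 3.49 and an edgeR adjusted p of 0.000694. Of the 15510 tested genes, 156 had a log2 fold change at least as high, and 101 of these were called.

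Fgb, which carries the Bβ chain, had 1799 reads in KO1 and 2439 in KO3, against 917 reads in each CTL library. Its levels were 102 CPM in KO1 and 137 CPM in KO3, against 52.2 CPM in CTL1 and 51.3 CPM in CTL2. The groups again did not overlap, and KO3 was again the higher P1KO library. The mean was 120 ± 24.6 CPM in P1KO and 51.8 ± 0.625 CPM in CTL (SD, n = 2 each). The log2 fold change was 1.21 ± 0.13 (SE), with an edgeR adjusted p of 0.00109 and a fold between 1.88 and 2.84 (95% interval). A log2 fold change at least as high was found for 234 tested genes (1.51%), of which 137 were called.

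Fgg, which carries the γ chain, had 1449 reads in KO1 and 2086 in KO3, against 802 in CTL1 and 846 in CTL2. Its levels were 82.3 CPM in KO1 and 117 CPM in KO3, against 45.7 CPM in CTL1 and 47.4 CPM in CTL2. The order of the libraries was that of the other chains, with KO3 above KO1 and both above the CTL pair. The mean was 99.8 ± 24.6 CPM in P1KO and 46.5 ± 1.19 CPM in CTL (SD, n = 2 each). The log2 fold change was 1.10 ± 0.15 (SE), with an edgeR adjusted p of 0.00291 and a fold between 1.68 and 2.73 (95% interval). For 284 tested genes (1.83%) the log2 fold change was at least as high, and 158 of these were called.

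**Figure D1:**
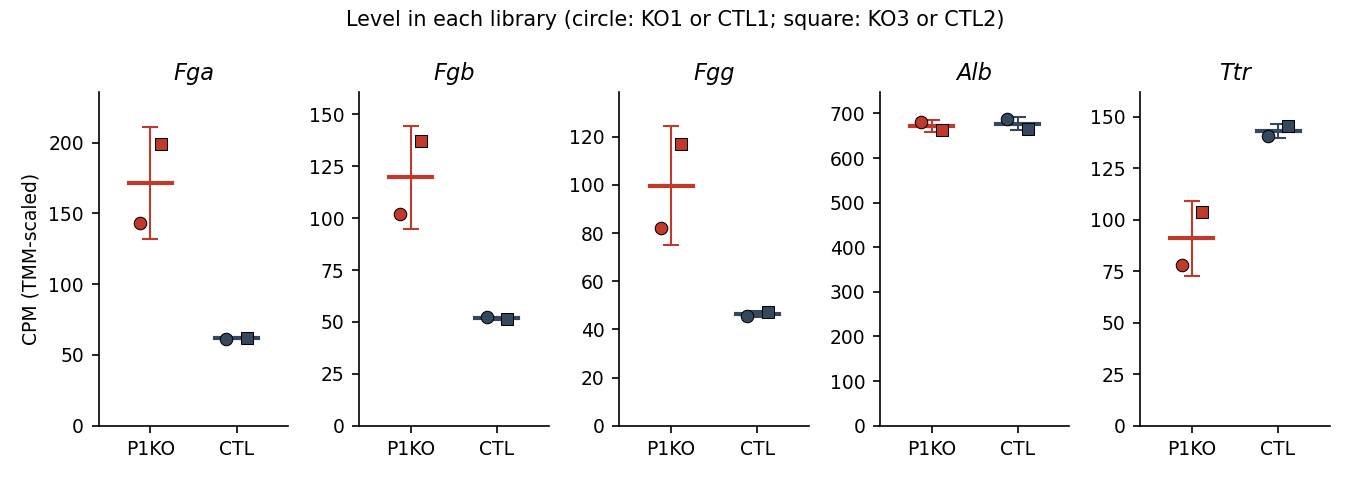
Level of each fibrinogen chain and of Alb and Ttr in every library, in TMM-scaled CPM on an axis that starts at 0, with P1KO left of CTL. Points are libraries, the thick line is the group mean and the thin bars are 1 SD (n = 2); Fga lies at 143 and 199 CPM in P1KO and at 61.5 and 61.7 CPM in CTL, and Alb does not separate the groups.

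Every P1KO library stood above every CTL library by a factor that was larger for KO3 than for KO1. Over the 4 pairings of a P1KO with a CTL library, the ratio of levels ran from 2.32 to 3.24 for Fga, from 1.96 to 2.67 for Fgb and from 1.74 to 2.57 for Fgg. Within P1KO, KO3 exceeded KO1 by 1.39-fold for Fga, 1.34-fold for Fgb and 1.42-fold for Fgg. A gap of that size or larger between the P1KO libraries was found for 17.6% of tested genes in the case of Fga, 20.2% for Fgb and 16.2% for Fgg. Within CTL, CTL2 differed from CTL1 by only 0.0044 on the log2 scale for Fga, -0.02 for Fgb and 0.05 for Fgg. A gap between the CTL libraries at least as large as that of Fga was found for 97.0% of tested genes, so the CTL pair was closer for this gene than for most. For Fgb this share was 84.5% and for Fgg 68.7%. With 2 libraries against 2, an exact two-sided permutation test cannot give a p below 0.333, and the calls rest on the spread that edgeR shares across genes.

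**Figure D2:**
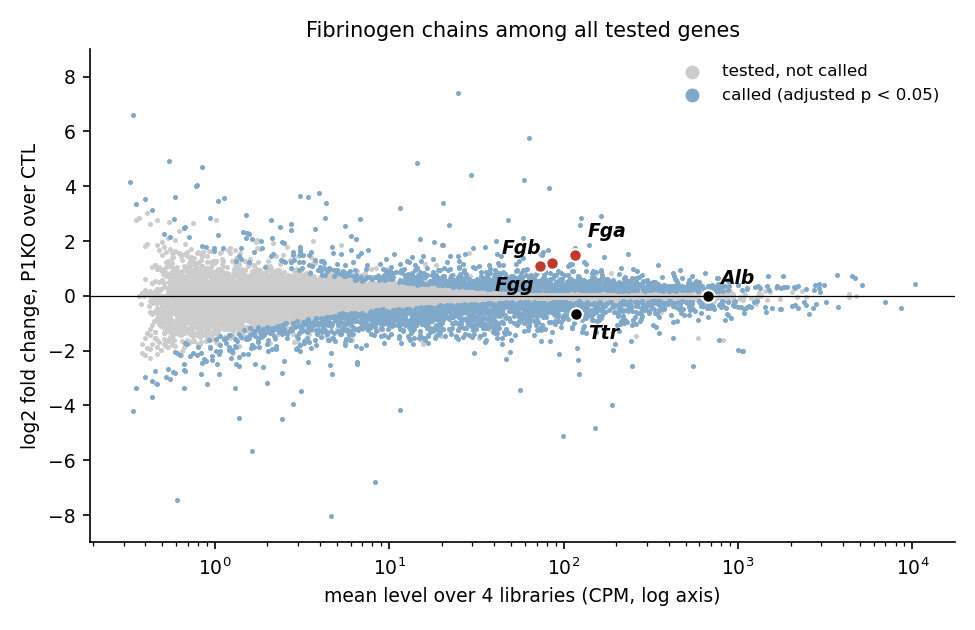
Log2 fold change of P1KO over CTL against the mean level over the 4 libraries (CPM, log axis) for the 15510 tested genes, with genes called at an adjusted p below 0.05 in blue and the others in grey. The chains, in red, lie at 1.48, 1.21 and 1.10 for Fga, Fgb and Fgg, on the side higher in P1KO, while Alb lies at the zero line and Ttr below it.

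Neither of the hepatocyte genes set beside the chains was called higher in P1KO. Other hepatocyte genes were not matched to symbols, so Alb and Ttr do not speak for hepatocyte transcripts in general. Alb had 11976 reads in KO1 and 11783 in KO3, against 12060 in CTL1 and 11899 in CTL2. Its mean was 671 ± 13.1 CPM in P1KO and 677 ± 14.6 CPM in CTL (SD, n = 2 each), and the groups overlapped. The log2 fold change of Alb was -0.01 ± 0.05 (SE), with an edgeR adjusted p of 0.898 and a 95% interval of the fold of 0.918 to 1.07, so a change of Alb as large as that of any chain lies outside the interval. The sign of this small value turned without KO3 (0.0084) and without CTL1 (0.0061).

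Ttr encodes transthyretin, the plasma carrier of thyroxine and of retinol-binding protein. It had 1377 reads in KO1 and 1848 in KO3, against 2473 in CTL1 and 2598 in CTL2. The mean was 91.0 ± 18.1 CPM in P1KO and 143 ± 3.26 CPM in CTL (SD, n = 2 each), without overlap. The log2 fold change of Ttr was -0.65 ± 0.12 (SE), with an edgeR adjusted p of 0.00961, and 9.84% of tested genes were called lower in P1KO. The call of Ttr was lost without a filter on low counts (edgeR adjusted p = 0.0528), without CTL1 (0.163), without CTL2 (0.179) and with the CTL libraries summed (0.168).

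Relative to Alb, the reads of the chains together were 48.2 per 100 Alb reads in KO1 and 68.5 in KO3, against 23.2 in CTL1 and 24.1 in CTL2. The 95% intervals, exact binomial and covering counting error only, were 46.7 to 49.7 in KO1 and 66.6 to 70.5 in KO3, against 22.3 to 24.2 in CTL1 and 23.1 to 25.1 in CTL2. The ratio was thus higher in both P1KO libraries, and the P1KO libraries differed from each other beyond counting error. Its mean was 58.3 ± 14.4 per 100 Alb reads in P1KO and 23.6 ± 0.614 in CTL (SD, n = 2 each), 2.43-fold higher in P1KO on the log2 mean.

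Relative to Ttr, the chains together had 419 reads per 100 Ttr reads in KO1 and 437 in KO3, against 113 in CTL1 and 110 in CTL2. Here the libraries of each genotype lay close together, with means of 428 ± 12.6 in P1KO and 112 ± 2.05 in CTL (SD, n = 2 each). The ratio was 3.83-fold higher in P1KO, and over the 4 pairings of libraries it ran from 3.70 to 3.96. It includes the fall of Ttr itself, whose P1KO level was 0.636 of that in CTL, and so exceeds the rise of the chains. The single chains gave 4.36-fold for Fga, 3.63-fold for Fgb and 3.35-fold for Fgg. Between the P1KO libraries Ttr was 1.33-fold higher in KO3, a factor near those of the chains, whereas Alb was at 0.973 of its KO1 level. No test was made of these ratios.

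**Figure D3:**
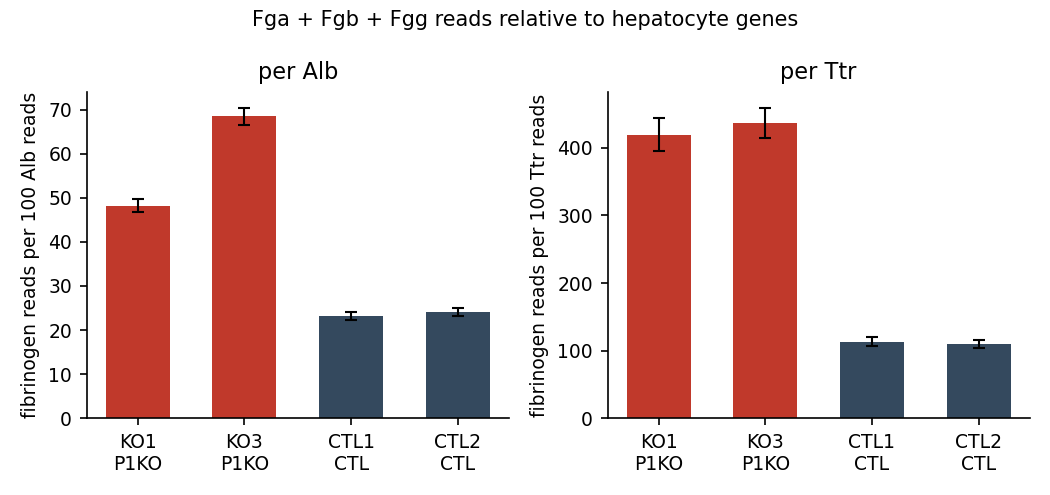
Summed Fga, Fgb and Fgg reads per 100 Alb reads (left) and per 100 Ttr reads (right) in each library, P1KO in red and CTL in dark grey, with 95% exact binomial intervals for counting error. Per Alb the P1KO libraries stand at 48.2 and 68.5 and the CTL libraries at 23.2 and 24.1; per Ttr they stand at 419 and 437 against 113 and 110.

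The reads of the chains together made up 0.0322% of all counted reads in KO1 and 0.0455% in KO3, against 0.0160% in CTL1 and 0.0161% in CTL2. The libraries are of bulk RNA, in which more cells of a type that transcribes fibrinogen and more fibrinogen RNA per cell cannot be told apart. Which cells carried the chain transcripts was not tested. The hepatocyte genes gave a P1KO level of 0.992 of that in CTL for Alb and of 0.636 for Ttr.

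In these libraries the chains did not rise by quite the same factor, a difference that was not tested from library to library. Of the reads of all 3 chains, Fga took 43.7% in KO1 and 43.9% in KO3, against 38.6% in CTL1 and 38.5% in CTL2. The Fga intervals (95%, Wilson, counting error only) were 42.4% to 45.0% and 42.9% to 45.0% in the P1KO libraries, against 36.8% to 40.4% and 36.7% to 40.3% in the CTL libraries, and they did not overlap between genotypes. The share depends on transcript length as well as on abundance, so only its difference between libraries is read here.

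Fgg took the smaller part in P1KO, with 25.1% in KO1 and 25.8% in KO3, against 28.7% in CTL1 and 29.5% in CTL2, and its intervals did not overlap between genotypes either. Fgb had 31.2% in KO1 and 30.2% in KO3, against 32.8% in CTL1 and 32.0% in CTL2, and here the intervals overlapped. There were 1.74 and 1.70 Fga reads per Fgg read in KO1 and KO3, against 1.35 and 1.30 in CTL1 and CTL2. In the edgeR fit, the 95% intervals of the 3 fold changes overlapped, and the difference between chains was not tested over libraries.

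**Figure D4:**
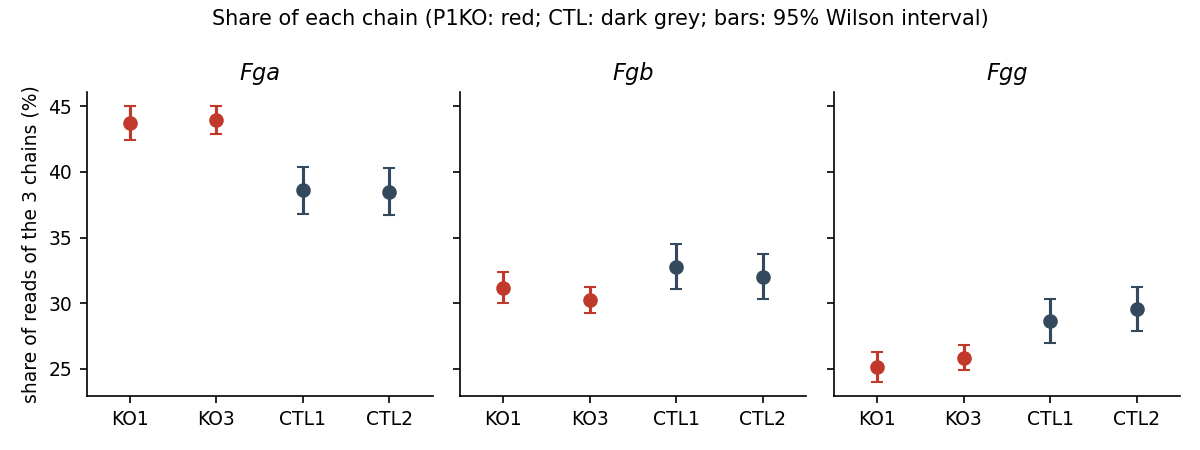
Share of Fga, Fgb and Fgg in the reads of all 3 chains, in percent, for each library, with 95% Wilson intervals for counting error; the axis does not start at 0. Fga lies near 44% in P1KO (43.7% and 43.9%) and at 38.6% and 38.5% in CTL, and Fgg is lower in both P1KO libraries.

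The likeness of the chains' profiles was measured as the Euclidean distance between log2 CPM values centred on each gene's mean, over only 4 libraries, so many genes can lie close by. Fgb was the fifth nearest of 15509 genes to Fgg, at a distance of 0.14. Fgb ranked 15 and Fgg 50 in nearness to Fga, the chain with the largest change. Fga in turn ranked 35 in nearness to Fgb and 106 in nearness to Fgg, so many other genes lay closer. Outside the family, the genes nearest to the mean profile of the chains were ENSMUSG00000116838, at a distance of 0.06, and ENSMUSG00000030895, at 0.09. The first had 16 and 22 reads in KO1 and KO3, against 7 in each CTL library, and was not called (edgeR adjusted p = 0.0799). For ENSMUSG00000030895 there were 2283 and 3190 reads in KO1 and KO3, against 1212 and 1218 in CTL1 and CTL2. It was called, with a log2 fold change of 1.17 ± 0.14 (SE, adjusted p = 0.00161 in edgeR). Neither identifier was matched to a symbol, so whether either is a hepatocyte gene was not checked.

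The direction of the chains' changes held in every fit. Both P1KO libraries lay above both CTL libraries for each chain, so refitting them could hardly turn it. The calls of the chains needed both CTL libraries. With edgeR run without CTL1, the log2 fold changes of Fga, Fgb and Fgg were 1.47, 1.22 and 1.07, with adjusted p values of 0.0728, 0.0830 and 0.123. Without CTL2 they were 1.47, 1.19 and 1.12, with edgeR adjusted p values of 0.0717, 0.0868 and 0.119. In these fits the spread came from the P1KO pair, and the call of each chain was lost. Far fewer of all tested genes were called there than in the fit on all libraries, so the loss was not particular to the chains. With both CTL libraries summed into 1, the edgeR adjusted p values were 0.0701 for Fga, 0.0794 for Fgb and 0.115 for Fgg. Without KO3, the P1KO library with the higher levels, the log2 fold changes were 1.22 for Fga, 0.98 for Fgb and 0.82 for Fgg. Without KO1 they were 1.69, 1.40 and 1.33. In these last fits the spread came from the CTL pair alone. More of all tested genes were called there than in the fit on all libraries, so no call of the chains is read from them.

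**Figure D5:**
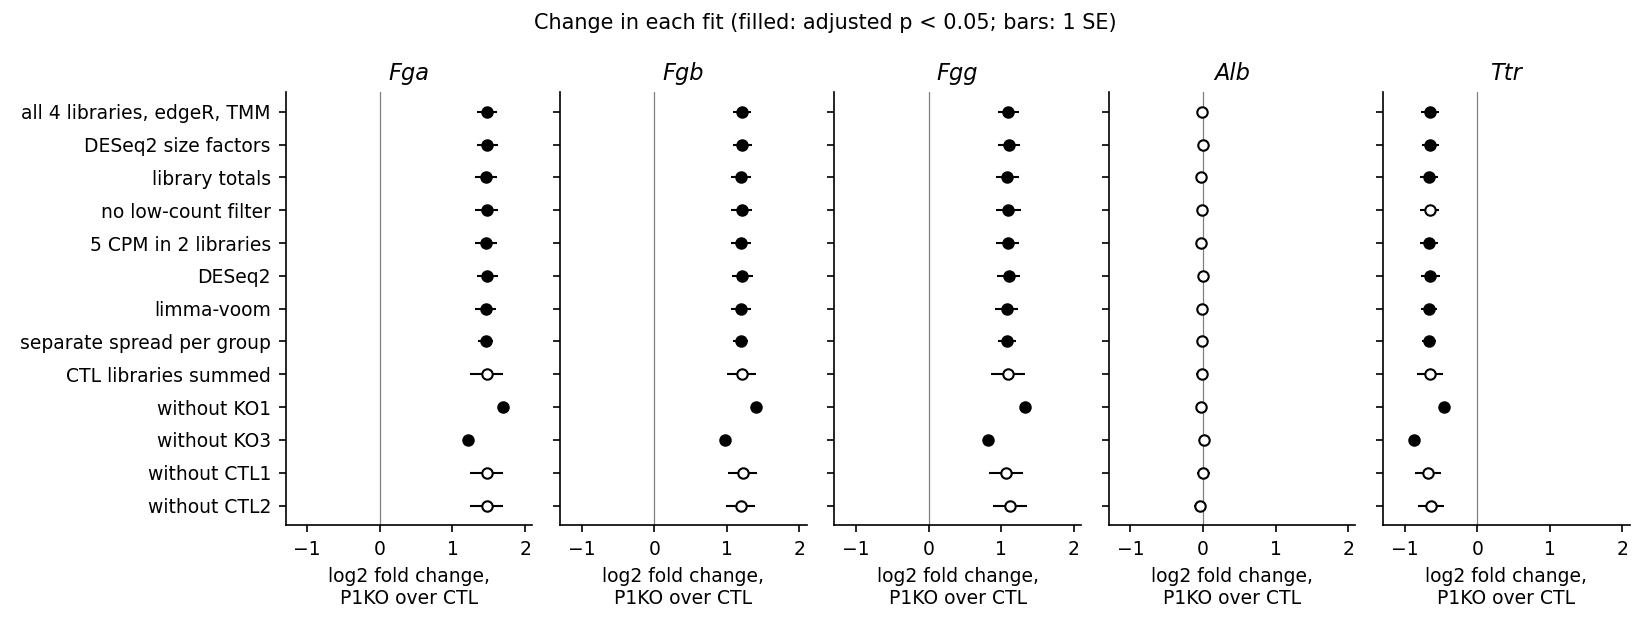
Log2 fold change of P1KO over CTL for each chain and for Alb and Ttr in every fit, with bars of 1 SE and filled points where the adjusted p was below 0.05. The chains stay right of zero throughout and lose their call without CTL1, without CTL2 and with the CTL libraries summed, whereas Alb stays near zero.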

How the data were processed

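RNA from 4 samples, 2 P1KO and 2 CTL, was sequenced after NEBNext Ultra library preparation, per the labels' protocols. The authors deposited raw read counts per Ensembl gene; reads were handled with featureCounts 1.5.0-p3, HISAT2 2.0.5, fastp and CASAVA on build mm10, per the submitters' processing notes. The annotation release is not given in the sources used here. All 4 columns were used and 0 were left out. KO3 carries a number that no title has, and it was placed in P1KO by its name alone. Of the 54532 identifiers, 0 matched a reference symbol, and 5 carried a name from the choice of members. Gene lists given by symbol were therefore not analysed.

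Differential expression used edgeR 4.0.16 in R 4.3.3 (filterByExpr, TMM, quasi-likelihood F-test, Benjamini-Hochberg adjustment over 15510 genes, threshold 0.05). SEs are the fold change divided by the square root of F. Intervals used scipy 1.17.1. Profiles for likeness used a prior count of 2. The script was tested on simulated data. Alternatives were DESeq2 1.42.0, its size factors, limma-voom (limma 3.58.1) with shared or separate spread, library totals, 2 other filters, summed CTL libraries and each library left out. Named are the chains, Alb, Ttr and the nearest identifiers by profile. The members and lists were chosen with earlier results of these data known.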

Additional observations from a re-analysis of the deposited data

How the results depend on the processing

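Direction held for Fga, Fgb, Fgg and Ttr in all 12 alternative fits, which could hardly turn it because the groups did not overlap for these genes. The chains were called in the 7 other settings on all 4 libraries, where 1633 to 3110 genes passed. These settings reuse the same libraries. The calls were lost without CTL1, without CTL2 and with the CTL libraries summed, where far fewer of all tested genes passed. Calls without KO1 or without KO3 are not read, since the spread there came from the CTL pair alone. The log2 fold changes with 1 library left out ran from 1.22 to 1.69 for Fga, 0.98 to 1.40 for Fgb, 0.82 to 1.33 for Fgg, -0.038 to 0.0084 for Alb and -0.87 to -0.46 for Ttr. The sign of Alb turned without KO3 (0.0084) and without CTL1 (0.0061), neither called. With the CTL libraries summed, the values were 1.47 for Fga, 1.20 for Fgb, 1.10 for Fgg and -0.66 for Ttr, all no longer called. This fit has fewer samples, and 152 genes passed. Without a filter on low counts, Ttr (-0.66) was no longer called and 1633 genes passed, over 26155 genes tested. In place of 3027 genes, 120 to 5391 passed with 1 library left out. Where 1 library was left in a group, its spread was assumed equal to that of the other genotype. The log2 ratio of fibrinogen reads, P1KO over CTL, was 1.28 per Alb read and 1.94 per Ttr read. The value per Ttr read includes the fall of Ttr itself. No other gene of the hepatocyte list could be matched, so the planned sum over that list is here the other gene alone. No paired analysis was possible because KO3 has a number that no title gives. Lists of other genes were not run for lack of symbols. Depth did not limit the chains, each read at least 802 times in every library.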
